A study of Pelodiscus sinensis with 18 samples.

Results

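Liver of Pelodiscus sinensis, a soft-shelled turtle farmed in China, was examined after exposure to niclosamide at 50 µg/L (nic50) and set against liver of the control group. The comparison covered every gene of the deposited expression table that reached the level set for testing, and 10892 of 24880 features did so. It used 6 of the 18 RNA libraries of the series, 3 of nic50 liver and 3 of control liver. The other libraries were 3 livers exposed at 10 µg/L (nic10), which shared the estimate of the spread, and 9 libraries of gut. All groups were labelled as wild type, and the labels used here gave no age, sex, exposure time or vehicle for any of them. Nothing in the labels ties the 3 libraries of a group to different animals. A p-value here therefore measures the spread from library to library, which could be technical.

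Niclosamide is a salicylanilide drug against tapeworms that is also used in water to kill snails. It carries protons across the inner mitochondrial membrane and so uncouples respiration from ATP synthesis. The liver takes up and modifies foreign compounds, makes most plasma proteins and bile acids, and converts sugars and fats for the rest of the body. The title of the series names antioxidant defence, histology and the transcriptome as the matters under study.

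Levels were FPKM values, which divide the fragments of a gene by its length and by the size of the library, and the sequencing depth behind them is unknown. Every difference below is nic50 minus control on the log2(FPKM + 1) scale unless another pair is named, so changes of low genes are understated. A gene is said to have risen or fallen only where limma gave an adjusted p under 0.05. The nic50 livers summed to between 620924 and 645652 FPKM and the control livers to between 623555 and 699273, and nic50 livers had 10215 to 10839 features at 1 FPKM or more against 9440 to 10451 in control livers. The 24 hepatocyte plasma protein genes found in the table summed to between 21091 and 23824 FPKM in nic50 livers and between 21300 and 28299 FPKM in control livers. CDX2, a transcription factor that defines intestinal epithelium, was at most 0.0227 FPKM in nic50 livers and at most 0.00937 FPKM in control livers. FABP2, another marker on the intestinal list, had 2.23, 1.17 and 2.16 FPKM in nic50 livers and 2.52, 1.39 and 0.663 FPKM in control livers. FABP2 is named after its values were seen.

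The control livers were not alike. Control livers 2 and 3 correlated with each other at a Pearson r of 0.991 over the tested genes, against 0.962 and 0.957 with control liver 1, while the 3 nic50 livers correlated with each other at 0.990 to 0.993. A set of 12 features without a gene symbol stood at 5 FPKM or more in control livers 2 and 3 and at 0.5 FPKM or less in each of the other 7 livers. Their median was 10.96 and 12.1 FPKM in those control livers, and 3 of the 9 gut libraries also had a median of at least 1 FPKM for the set. RefSeq places 4 of the 12 on chromosome 15. This set was described after its values were seen.

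Genes of chromosome 15 followed the same split. Relative to the other tested genes, the median of 221 chromosome 15 genes deviated from the control mean by 0.53, 0.51 and 0.56 in nic50 livers 1, 2 and 3, against 0.44 in control liver 1, -0.20 in control liver 2 and -0.21 in control liver 3. The nic10 livers lay at 0.47, 0.51 and 0.52. Control liver 1 lay near the nic50 livers on this measure, and control livers 2 and 3 lay below zero. Of the 221 genes, 50 rose in nic50 (22.6%), where 3.69% of all tested genes rose, and 0 fell. With scaling by trimmed means 15 of them rose, and without control liver 1 95 rose, against 226 and 457 of all 10892 tested genes. The median difference of the 221 genes was 0.66 against all 3 controls, 0.76 against controls 2 and 3 and 0.41 against control 1. The medians of all tested genes were 0.13, 0.03 and 0.36. Rises of chromosome 15 genes given below should be read against this split of the controls. The sex of the animals is not in the labels, and the part of sex in these differences was not tested. Values against control liver 1 alone are given beside many of the leading genes, and the chromosome is named where it is 15. These values were not rescaled, so each should be read against the median of 0.36 of all tested genes. The factor of control liver 1 in scaling by trimmed means was 0.769, against 0.976 to 1.12 in the other livers. In the fit against control liver 1 alone the control group is a single library. The spread there comes from the nic50 and nic10 livers alone, and the control is assumed to vary as they do.

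**Figure D1:**
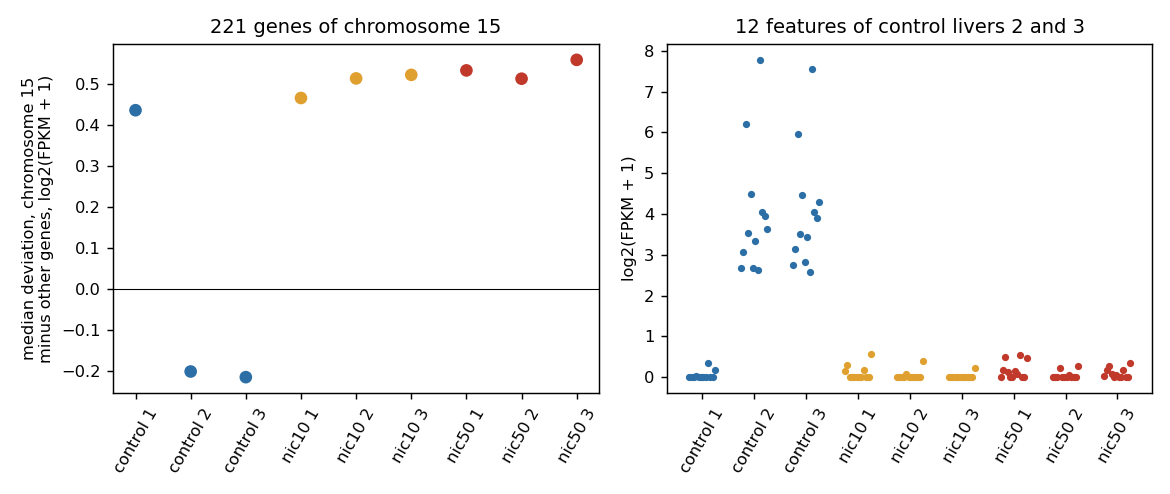
Left, the median deviation from the control mean of 221 genes of chromosome 15, minus the same median of the other tested genes, in log2(FPKM + 1) for each of the 9 livers. Right, log2(FPKM + 1) of the 12 features that were at 5 FPKM or more in control livers 2 and 3, 1 point for each feature. Control livers 2 and 3 lie at -0.20 and -0.21 on the left. They stand apart from the other 7 livers on the right because the 12 features were chosen that way.

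Of the 10892 genes tested, 513 passed the threshold, which is 4.71% of them. In nic50 liver 402 genes rose (3.69%) and 111 fell (1.02%), and 354 of the 513 carried a gene symbol. An unadjusted p under 0.05 was found for 2220 genes. The nic50 livers all lay above the control livers for 2923 genes (26.8%) and all below them for 953 genes (8.75%), so higher values were also more frequent among genes that did not pass. The median difference of all tested genes was 0.13, and scaling by trimmed means moved it to -0.01 and the split of calls to 226 higher and 169 lower. Single differences should be read against that shift. Counts of called genes in the lists below should be read against the shares of 4.71%, 3.69% and 1.02%.

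The calls were not equally firm. The count was 147, 121 and 107 without nic50 liver 1, 2 or 3. It was 721, 188 and 162 without control liver 1, 2 or 3, and 962 without nic10 liver 1. Of the 513 called genes, 82 passed in none of the 6 fits that left out 1 nic50 or control liver. Of the 354 genes with a symbol that passed, 50 also passed in each of the 6 fits that left out 1 nic50 or control liver, 37 of them higher and 13 lower. Among the genes described below these were CISH, PDYN, CENPV, DIO2, UCHL1, LGALS3, PLOD2, WDHD1, HSF2BP, THNSL2, TMEM119, HPGDS, NT5C, RET, HGFAC, SRD5A2, MIS18A, COL14A1, RARRES1, TM6SF2, CAMKK2, IDO2, KLF10, CTHRC1, SPDL1, HPGD, HSD3B1, HPN, PRLH, DPP7, COL6A3, SOCS1, TNN, SLC2A2, EFEMP1 and COL3A1, and every other called gene described lost its call in at least 1 of the 6 fits. All 50 passed when the libraries were scaled by trimmed means, and 29 of them passed against control liver 1 alone. When the 3 nic50 livers were averaged into 1 value and control livers 2 and 3 into another, since they resembled each other so closely, 4 features passed and none of them had a gene symbol. That fit held 1 nic50 value, so the spread came from the nic10 and control values alone. The feature with the largest difference of the comparison was among the features that passed and is named here after its values were seen. LOC102443578 had 0, 0.125 and 0.157 FPKM in nic50 livers, against 409, 794 and 990 FPKM in control livers (adjusted p = 1.12e-07). SRD5A2, PDYN, PRLH, COL14A1, TNN, HSF2BP and GPX8 reached 1 FPKM in nic50 livers only. They entered the test through the group where they are high, and their calls are a description. PLOD2 also entered that way, since nic10 liver 1 was the only other liver to reach 1 FPKM. The same holds for LOC112545245 and LOC102444481, which are among the 4 features above and are named after their values were seen. LOC112545245 had 17.7 to 18.8 FPKM in nic50 livers and 0 in the other livers. LOC102444481 had 5.01 to 8.82 FPKM in nic50 livers and at most 0.474 FPKM in the others.

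**Figure D2:**
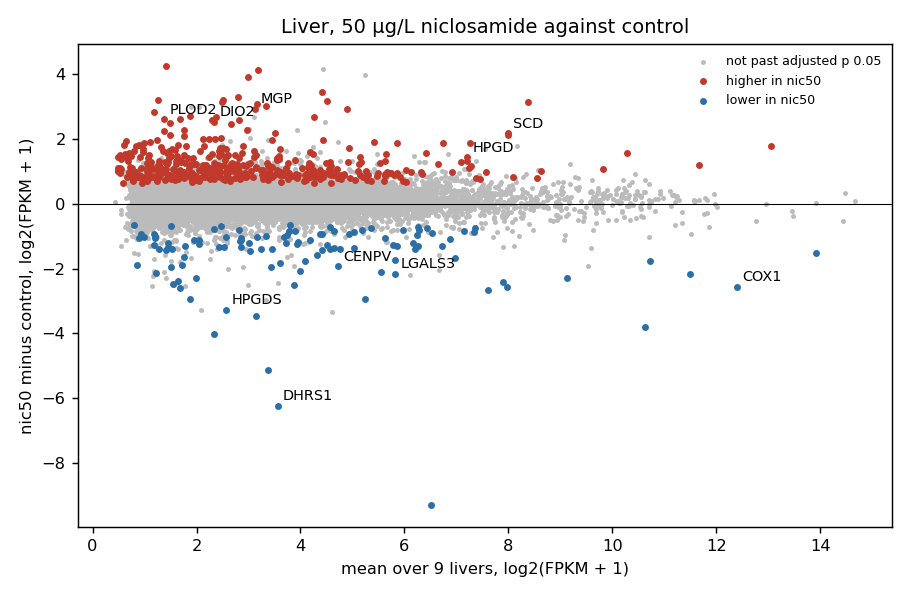
Difference between nic50 and control livers, in log2(FPKM + 1), against the mean level over the 9 livers for the 10892 genes tested. Red points are the 402 genes that rose in nic50, blue points the 111 that fell and grey points those that did not pass an adjusted p of 0.05.

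CISH and SOCS1, inhibitors of cytokine signalling, rose in nic50 liver. CISH, an inhibitor of signalling by growth hormone, prolactin and other cytokine receptors through STAT5, had 13.5, 13.7 and 13 FPKM in nic50 livers, against 0.851, 2.05 and 2.08 FPKM in control livers. The groups did not overlap, the nic50 livers were nearly equal and control liver 1 was the lowest. CISH rose by 2.47 (SE 0.23, limma adjusted p = 0.000498), and by 2.96 against control liver 1 alone (adjusted p = 0.00325). SOCS1, a related inhibitor of JAK kinases, had 3.20, 2.85 and 3.38 FPKM in nic50 livers and 0.592, 0.618 and 0.857 FPKM in control livers. It rose by 1.30 (SE 0.20, adjusted p = 0.00631), and its adjusted p was 0.0571 against control liver 1 alone. These were the only 2 genes called among 39 tested members of a list for growth hormone, JAK-STAT and IGF signalling, where 4.71% of all tested genes passed, and the list had a median of 0.10. IGFBP3, a carrier of insulin-like growth factors, had the next smallest p in that list, with a difference of 1.02 (SE 0.27, adjusted p = 0.0586).

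A few enzymes that activate or convert hormones rose. DIO2, the deiodinase that makes active thyroid hormone, had 12.4, 11.7 and 19.7 FPKM in nic50 livers, against 1.42, 1.25 and 2.37 FPKM in control livers. Every nic50 liver was above every control liver, and nic50 liver 3 was the highest. The rise was 2.53 (SE 0.25, adjusted p = 0.000747) and 2.66 against control liver 1 alone (adjusted p = 0.0212). SRD5A2, a steroid 5-alpha reductase, averaged 3.03 ± 0.67 FPKM in nic50 livers and 0.14 ± 0.12 FPKM in control livers (SD, n = 3 each), with 1 control liver at 0, and rose by 1.81 (SE 0.24, adjusted p = 0.00284). HSD3B1 (LOC102453952), whose mammalian counterparts make progesterone and androstenedione from their precursors, had 19.6, 16.6 and 16.1 FPKM in nic50 livers and 3.46, 4.98 and 5.80 FPKM in control livers. It rose by 1.70 (SE 0.25, adjusted p = 0.00512). SRD5A2 and HSD3B1 differed by 1.73 and 2.04 against control liver 1 alone (adjusted p = 0.0575 and 0.0362). These 3 were called among 22 tested genes for thyroid and steroid hormones, where 3.69% of all tested genes rose, and the list had a median of 0.22. SRD5A2 met the level for testing only through the nic50 livers, so its call and its place in that count are a description. CYP17A1 (LOC102457785), named here after its values were seen, did not pass: it had 0.527, 1.14 and 1.14 FPKM in nic50 livers, against 1.57, 19.9 and 24.4 FPKM in control livers, so that only control livers 2 and 3 were high.

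PDYN and PRLH, which encode peptide precursors, were low in nic50 livers and close to 0 in control livers. PDYN, the precursor of dynorphin opioid peptides, had 2.08, 3.36 and 2.34 FPKM in nic50 livers and was listed at 0 in all 3 control livers. Its adjusted p was 0.000633. PRLH, the precursor of prolactin-releasing peptide, had 1.86, 2.75 and 1.73 FPKM in nic50 livers, against 0, 0.0474 and 0.172 FPKM in control livers (adjusted p = 0.00596). Both met the level for testing only through the nic50 livers. The neuronal hydrolase UCHL1 had 5.0, 6.09 and 5.11 FPKM in nic50 livers and 0.864, 0.483 and 0.222 FPKM in control livers, a rise of 2.09 (SE 0.21, adjusted p = 0.000747). RET, the receptor tyrosine kinase for the GDNF family, moved the other way, with 0.145, 0.152 and 0.0883 FPKM in nic50 livers and 6.05, 4.74 and 3.89 FPKM in control livers. It fell by 2.37 (SE 0.29, adjusted p = 0.0015), and by 2.64 against control liver 1 alone (adjusted p = 0.0345). UCHL1 and RET were the only calls among 3 tested markers of neurons and glia; 24 such markers were in the table, and their summed level was 10.1 to 10.5 FPKM in nic50 livers and 9.99 to 10.8 FPKM in control livers.

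**Figure D3:**
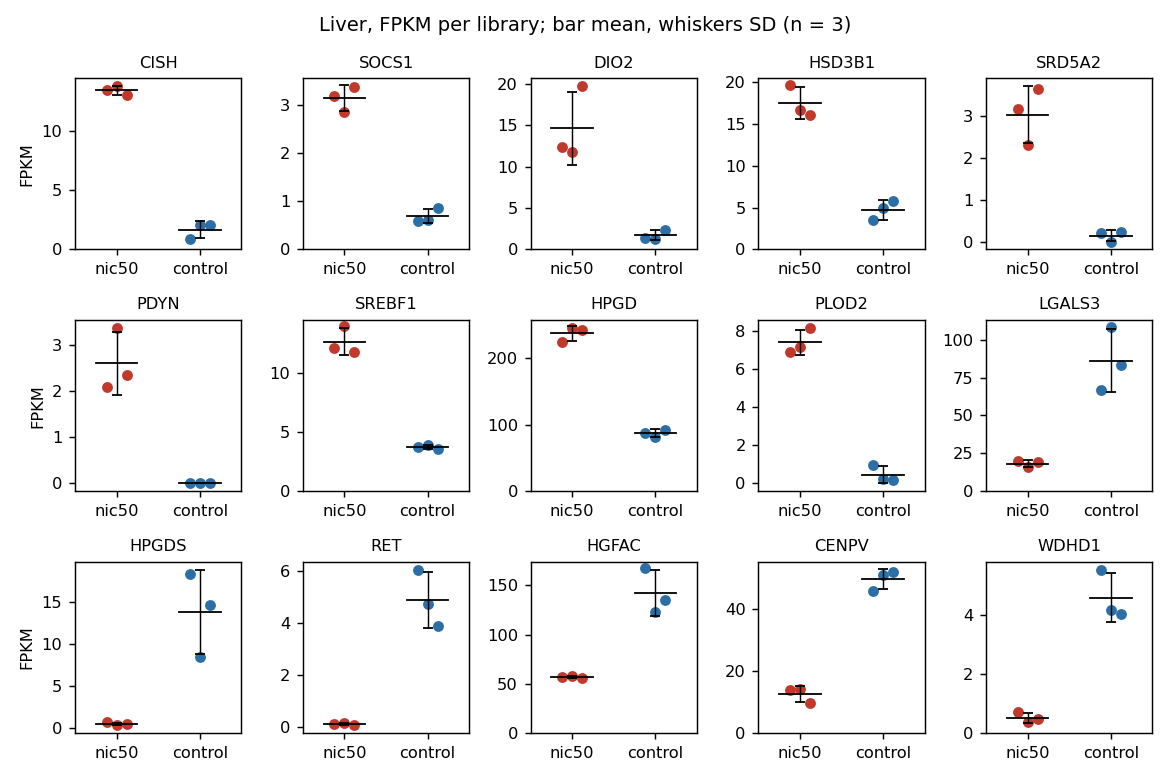
FPKM of 15 genes in nic50 livers (red, left) and control livers (blue, right), with 1 point for each library, a bar at the mean and whiskers of 1 SD (n = 3 each). The 15 genes were chosen among the called genes, and the groups do not overlap for any called gene. CISH, DIO2 and HPGD are higher in nic50, and LGALS3, HPGDS, RET, HGFAC, CENPV and WDHD1 are lower.

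Genes of prostaglandin and leukotriene metabolism differed in both directions. HPGD, which inactivates prostaglandins by oxidation, had 224, 246 and 242 FPKM in nic50 livers, against 87.2, 81.5 and 92.6 FPKM in control livers, and rose by 1.44 (SE 0.21, adjusted p = 0.00505), with 1.43 against control liver 1 alone (adjusted p = 0.0645). HPGDS, the synthase of prostaglandin D2, had 0.659, 0.368 and 0.420 FPKM in nic50 livers and 18.3, 8.44 and 14.6 FPKM in control livers. All nic50 livers were below 1 FPKM and all control livers above 8, and HPGDS fell by 3.26 (SE 0.38, adjusted p = 0.00119), or by 3.71 against control liver 1 alone (adjusted p = 0.0279). PTGS2, the inducible cyclooxygenase, rose by 1.32 (SE 0.24, adjusted p = 0.0162), with 2.77 to 6.03 FPKM in nic50 livers and 0.806 to 1.06 FPKM in control livers. LTA4H, which forms leukotriene B4, fell by 1.18 (SE 0.23, adjusted p = 0.018). The list held 19 tested genes, of which 2 rose and 2 fell, against 3.69% and 1.02% of all tested genes, with a median of 0.18.

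A few genes of fat synthesis and lipoprotein handling were higher in nic50 liver. SREBF1, a transcription factor that drives fatty acid synthesis genes, had 12.1, 13.9 and 11.8 FPKM in nic50 livers, against 3.72, 3.91 and 3.59 FPKM in control livers. The spread within each group was small, and SREBF1 rose by 1.52 (SE 0.25, adjusted p = 0.00826), with 1.53 against control liver 1 alone (adjusted p = 0.0721). SCD, which places a double bond in saturated fatty acids, had 590, 649 and 534 FPKM in nic50 livers and 235, 101 and 89.4 FPKM in control livers. Control liver 1 was the highest control, and SCD rose by 2.19 (SE 0.42, adjusted p = 0.0179), or 1.32 against control liver 1 alone (adjusted p = 0.157). ACACB, a mitochondrial acetyl-CoA carboxylase on chromosome 15, rose by 1.24 (SE 0.28, adjusted p = 0.0336). With trimmed-mean scaling SREBF1 remained past the threshold (adjusted p = 0.0207), while SCD and ACACB did not (adjusted p = 0.0631 and 0.0702). These were the 3 calls among 35 tested genes of fatty acid and triglyceride synthesis, where 3.69% of all tested genes rose. The list's median of 0.18 was near the 0.13 of all genes. With trimmed-mean scaling 1 gene of the list rose and 1 fell. FASN, the fatty acid synthase, had 10.4, 9.46 and 9.60 FPKM in nic50 livers and 4.95, 8.75 and 9.48 FPKM in control livers (adjusted p = 0.471); it was named after its values were seen.

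LPL, the lipase that releases fatty acids from circulating lipoproteins, had 67.7, 60.7 and 59.9 FPKM in nic50 livers and 10.1, 23.7 and 24.8 FPKM in control livers, and rose by 1.73 (SE 0.34, adjusted p = 0.0187), or by 2.52 against control liver 1 alone (adjusted p = 0.0296). TM6SF2, which in mammals helps to load lipid onto hepatic lipoproteins, had 32.9, 37.1 and 33.3 FPKM in nic50 livers, against 83.3, 83.2 and 92.7 FPKM in control livers. It fell by 1.30 (SE 0.18, adjusted p = 0.00325). APOH, a plasma glycoprotein that binds phospholipids, was the other call beside LPL among 25 tested genes of lipoprotein handling, with a rise of 1.0 (SE 0.22, adjusted p = 0.0314). Of all tested genes 3.69% rose. Of 25 tested genes of cholesterol synthesis, 13 had all nic50 livers above all control livers (26.8% of all tested genes did) and 2 passed, with a median of 0.46. These were EBP, a sterol isomerase that rose by 0.99 (SE 0.18, adjusted p = 0.0147), and mevalonate kinase MVK, on chromosome 15, which rose by 1.01 (SE 0.22, adjusted p = 0.0284). Neither passed with trimmed-mean scaling, where EBP had an adjusted p of 0.0636 and MVK one of 0.0642.

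Among 27 tested genes of bile acid synthesis and transport, 1 rose and 1 fell, against 3.69% and 1.02% of all tested genes. With trimmed-mean scaling 0 rose and 2 fell. AKR1D1, the reductase that shapes the sterol ring of bile acids, had 26.5, 25.7 and 24.4 FPKM in nic50 livers, against 75.4, 46.9 and 44.0 FPKM in control livers. It fell by 1.05 (SE 0.21, adjusted p = 0.0207), and by 1.53 against control liver 1 alone (adjusted p = 0.0221). ACOX2, a peroxisomal oxidase that shortens the side chain of bile acid precursors, had 258, 245 and 235 FPKM in nic50 livers and 110, 112 and 119 FPKM in control livers, a rise of 1.10 (SE 0.26, adjusted p = 0.0419) that did not pass with trimmed means (adjusted p = 0.116). Of 40 tested genes of fatty acid oxidation and ketogenesis, only the acyl-CoA thioesterase ACOT12 passed, with a rise of 1.05 (SE 0.20, adjusted p = 0.0181). Of all tested genes 4.71% passed.

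Genes of sugar use gave few calls. Of all tested genes 4.71% passed, 3.69% higher and 1.02% lower. SLC2A2, a hepatic glucose transporter, had 3.47, 4.15 and 5.72 FPKM in nic50 livers, against 1.29, 0.473 and 0.738 FPKM in control livers. It rose by 1.58 (SE 0.25, adjusted p = 0.00688) and was the only call among 43 tested genes of glycolysis, gluconeogenesis and glycogen. With trimmed-mean scaling 1 gene of that list rose and 2 fell. A second feature with the same symbol, SLC2A2 (LOC102454801), had 2.90, 2.57 and 4.41 FPKM in nic50 livers and 1.53, 2.17 and 3.56 FPKM in control livers (adjusted p = 0.597); it was named after its values were seen, and reads of such copies may have been divided by the counting. Pyruvate carboxylase, PC, had 57.9, 56.0 and 58.9 FPKM in nic50 livers and 109, 98.1 and 134 FPKM in control livers, and fell by 0.96 (SE 0.17, adjusted p = 0.0131). PDK1, a kinase that switches off pyruvate dehydrogenase, rose by 0.85 (SE 0.21, adjusted p = 0.0494), the other call among 32 tested genes of the citric acid cycle and pyruvate. Of 29 tested genes linked to hypoxia, PDK1 and PLOD2 rose and none fell, with a list median of 0.24. PLOD2, given below, met the level for testing only through the nic50 livers, so its call is a description.

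Transcripts of the mitochondrial genome took a lower share of the FPKM sum in nic50 livers, and its genes differed unequally. The 13 protein-coding genes of that genome took 8.97%, 9.03% and 10.3% of the FPKM sum in nic50 livers, against 20.4%, 15.7% and 14.9% in control livers, so the groups did not overlap. COX1, a subunit of cytochrome c oxidase, had 2341, 2203 and 2792 FPKM in nic50 livers and 18082, 13436 and 11997 FPKM in control livers. It fell by 2.55 (SE 0.48, adjusted p = 0.0165), and by 2.89 against control liver 1 alone (adjusted p = 0.0791). ND1, a subunit of complex I, fell by 2.17 (SE 0.45, adjusted p = 0.0241), with 1469 to 1631 FPKM in nic50 livers and 6158 to 7982 FPKM in control livers. COX2 fell by 1.53 (SE 0.36, adjusted p = 0.0381). ATP8, a small subunit of ATP synthase, moved the other way with 1569, 1941 and 2759 FPKM in nic50 livers, against 922, 563 and 603 FPKM in control livers, a rise of 1.58 (SE 0.33, adjusted p = 0.0247).

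The other 9 mitochondrial genes did not pass. The 3 nic50 livers lay below all controls for ND2, ND3, ND4, ND5, COX3 and CYTB as well, which makes 9 of 13 with COX1, COX2 and ND1, where the share over all genes was 8.75%. ATP6, which overlaps ATP8 in vertebrate mitochondrial genomes, had 8119, 8537 and 8853 FPKM in nic50 livers and 10860, 7908 and 7070 FPKM in control livers (adjusted p = 0.993). ATP6 and these genes that did not pass are named after their values were seen. The nic10 livers were spread over the whole range for COX1, with 2405, 11345 and 3392 FPKM. Against control liver 1 alone, where the spread of the control is not measured, COX1, ND1 and COX2 differed by -2.89, -2.37 and -1.92. ATP8 differed by 1.14 there. With alike livers averaged, where the spread of nic50 livers is not measured, COX1, ND1, COX2 and ATP8 differed by -2.64, -2.22, -1.63 and 1.47. With trimmed-mean scaling COX1 and ND1 remained lower, and neither COX2 (adjusted p = 0.0677) nor ATP8 (adjusted p = 0.0811) passed. Of the 6 fits without 1 nic50 or control liver, COX1 passed in 2 and ATP8 in 1, while ND1 and COX2 passed in 0. A further 24 RNA features of the mitochondrial sequence carry no gene name in the table. Of 21 tested, 7 fell and 2 rose, against 1.02% and 3.69% of all tested genes. FPKM is a share of each library, so levels of these very abundant transcripts bear on the scaling of all other genes. How the libraries were selected for RNA types is not given in the sources used here, and its part in the difference was not tested.

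None of 69 tested nuclear genes of the respiratory chain passed in either direction, and their median was -0.05. None of 67 mitochondrial ribosomal protein genes passed either, with a median of 0.14, and none of 21 genes of mitochondrial RNA handling. PPARGC1A, a coactivator that promotes mitochondrial biogenesis, had 26.5, 20.2 and 22.0 FPKM in nic50 livers and 8.04, 9.52 and 8.45 FPKM in control livers, without overlap, yet its difference of 1.30 (SE 0.34) had an adjusted p of 0.0577. Among 21 tested genes of uncoupling and mitochondrial biogenesis, the only call was PRKAB1 (LOC102462692), a regulatory subunit of the energy sensor AMPK on chromosome 15, which rose by 0.87 (SE 0.18, adjusted p = 0.024). CAMKK2, a kinase that activates AMPK and also lies on chromosome 15, had 6.22, 9.60 and 9.52 FPKM in nic50 livers, against 1.90, 2.14 and 2.03 FPKM in control livers. It rose by 1.62 (SE 0.23, adjusted p = 0.00354), and by 1.68 against control liver 1 alone (adjusted p = 0.053).

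**Figure D4:**
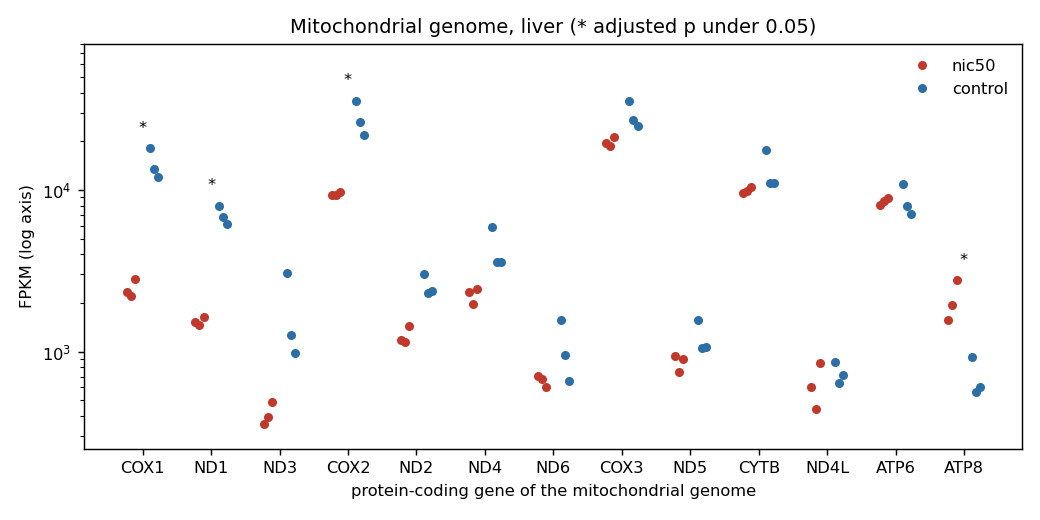
FPKM, on a log axis, of the 13 protein-coding genes of the mitochondrial genome in nic50 livers (red, left) and control livers (blue, right), 1 point for each library, ordered by the size of the difference. Asterisks mark an adjusted p under 0.05. COX1, ND1 and COX2 are lower in nic50, ATP8 is higher, and ATP6 overlaps between groups.

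The best known antioxidant enzymes did not pass the test in the main fit. SOD1, the cytosolic superoxide dismutase, had 457, 444 and 388 FPKM in nic50 livers and 433, 488 and 425 FPKM in control livers (adjusted p = 0.932). SOD2, its mitochondrial counterpart, differed by 0.56 (SE 0.23, adjusted p = 0.199), catalase CAT by 0.38 (SE 0.22, adjusted p = 0.369) and the glutathione peroxidase GPX1 by 0.55 (SE 0.21, adjusted p = 0.172). HMOX1, the haem oxygenase, had 382, 363 and 344 FPKM in nic50 livers and 187, 356 and 362 FPKM in control livers, where control liver 1 was the low one (adjusted p = 0.567). NFE2L2, the transcription factor of the oxidative stress response, differed by 0.04 (SE 0.18, adjusted p = 0.924), its target NQO1 by -0.09 (SE 0.25, adjusted p = 0.883), its inhibitor KEAP1 (LOC102454403) by 0.50 (adjusted p = 0.252) and glutathione reductase GSR by 0.51 (adjusted p = 0.327).

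Of 40 tested antioxidant genes, 4 rose and 0 fell, against 3.69% and 1.02% of all tested genes, with a median of 0.23. GPX8, given below, counts among the 4 but met the level for testing only through the nic50 livers, so its call is a description. TXNRD2, the mitochondrial thioredoxin reductase on chromosome 15, had 13.1, 14.7 and 15.2 FPKM in nic50 livers, against 7.70, 5.34 and 6.02 FPKM in control livers, and rose by 1.07 (SE 0.18, adjusted p = 0.00864). GLRX2, a glutaredoxin of mitochondria, rose by 0.89 (SE 0.16, adjusted p = 0.0132), the cytosolic thioredoxin reductase TXNRD1 by 0.99 (SE 0.25, adjusted p = 0.0477) and the peroxidase GPX8 by 0.84 (SE 0.21, adjusted p = 0.0452). With trimmed-mean scaling TXNRD2 alone of the 4 remained past the threshold, with an adjusted p of 0.0481. Another gene of the list fell in that fit, so that 1 rose and 1 fell. None of the 4 passed against control liver 1 alone, where TXNRD2 differed by 0.81 (adjusted p = 0.0731).

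Genes for handling foreign compounds gave 2 calls of 28 tested, both lower, where 1.02% of all tested genes fell. DHRS1, a short-chain dehydrogenase, had 0.493, 0 and 0.382 FPKM in nic50 livers, against 34.4, 158 and 155 FPKM in control livers. The difference was -6.23 (SE 1.34, adjusted p = 0.0281), and nic10 livers had 137, 16.4 and 0 FPKM. The nic10 livers thus ranged from the control level to 0. AKR1D1, given above, was the other. The aryl hydrocarbon receptor AHR, which switches on detoxifying enzymes, had 14.6, 18.7 and 24.1 FPKM in nic50 livers and 7.39, 10.3 and 12.5 FPKM in control livers (adjusted p = 0.0981).

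Few genes linked to protein stress passed, where 4.71% of all tested genes did. Of 47 tested genes of the unfolded protein response, only SEC61G, a subunit of the channel into the endoplasmic reticulum, rose, and of 40 cytosolic chaperones only the small heat shock protein HSPB8, on chromosome 15, with 3.84, 3.09 and 5.85 FPKM in nic50 livers and 1.04, 0.997 and 0.996 FPKM in control livers (adjusted p = 0.0124). Of 41 proteasome genes PSMD14 rose, while with trimmed-mean scaling 0 rose and 1 fell. None of 32 genes of apoptosis and p53 passed, with a median of 0.09.

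Several fibrillar collagens, matrix glycoproteins and stellate cell markers rose in nic50 liver, while no tested basement membrane gene passed. Of 8 tested fibrillar and microfibrillar collagens, 5 rose and 0 fell, where 3.69% of all tested genes rose, with a median of 1.0, and in all 8 the nic50 livers lay above the control livers, as for 26.8% of all tested genes. The other 4 collagens of the list in the table were too low to test, with a highest value of 0.879 FPKM in any liver. COL6A3 had 5.51, 7.90 and 7.28 FPKM in nic50 livers, against 1.30, 2.07 and 2.31 FPKM in control livers, and rose by 1.45 (SE 0.22, adjusted p = 0.00609). COL3A1 (LOC102447978) had 2.82, 2.49 and 4.75 FPKM in nic50 livers and 0.496, 0.633 and 0.690 FPKM in control livers, a rise of 1.40 (SE 0.23, adjusted p = 0.00745). COL14A1, a collagen that associates with fibrils, had 1.30, 1.40 and 1.34 FPKM in nic50 livers and 0.0279, 0.109 and 0.141 FPKM in control livers (adjusted p = 0.00319). COL6A3, COL3A1 and COL14A1 differed by 1.77, 1.51 and 1.19 against control liver 1 alone (adjusted p = 0.0362, 0.0608 and 0.0451). COL1A1 and COL5A2 rose by 1.06 and 0.83, and neither passed with trimmed-mean scaling (adjusted p = 0.051 and 0.054). These collagens were low in every liver. COL14A1 met the level for testing only through the nic50 livers, so its call and its place in these counts are a description.

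Some matrix glycoproteins rose. MGP, an inhibitor of calcification, had 30.1, 11.1 and 44.8 FPKM in nic50 livers, against 4.11, 3.05 and 0.837 FPKM in control livers. The nic50 livers varied widely among themselves, and MGP rose by 2.94 (SE 0.51, adjusted p = 0.0119). EFEMP1, a fibulin, had 3.12, 3.49 and 5.12 FPKM in nic50 livers and 0.317, 0.752 and 0.640 FPKM in control livers, a rise of 1.63 (SE 0.26, adjusted p = 0.00688). SPARC, which binds collagen, rose by 1.36 (SE 0.27, adjusted p = 0.0208) and the proteoglycan decorin, DCN, by 1.26 (SE 0.24, adjusted p = 0.0186). MGP and EFEMP1 differed by 2.34 and 1.88 against control liver 1 alone (adjusted p = 0.0975 and 0.0559). These 4 genes were the calls among 16 tested, where 3.69% of all tested genes rose, and the list had a median of 0.36. Its 30 genes in the table summed to 3698 to 4559 FPKM in nic50 livers and 4457 to 5177 FPKM in control livers, so the sum did not follow the calls. Outside the list, the collagen modifier CTHRC1 rose by 1.50 (SE 0.22, adjusted p = 0.00488) and tenascin TNN by 1.02 (SE 0.16, adjusted p = 0.00649). TNN met the level for testing only through the nic50 livers, so its call is a description. None of 11 tested basement membrane genes passed, and their median of 0.23 was nearer to that of all genes.

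PLOD2 (LOC102445695), which hydroxylates lysines of collagen for crosslinking, was higher in nic50 livers. Outside them only nic10 liver 1 reached 1 FPKM, with 1.13 FPKM, so PLOD2 met the level for testing through the nic50 livers. Its call and its place in the list counts are a description. PLOD2 had 6.90, 7.12 and 8.14 FPKM in nic50 livers, against 0.931, 0.192 and 0.132 FPKM in control livers. The rise was 2.61 (SE 0.26, adjusted p = 0.000753), and 2.12 against control liver 1 alone (adjusted p = 0.0334). It was the only rise among 17 tested genes of collagen processing, where PCOLCE, an enhancer of procollagen cleavage, fell by 1.07 (SE 0.24, adjusted p = 0.0322), with 97.6 to 117 FPKM in nic50 livers and 189 to 305 FPKM in control livers. The list had a median of 0.00, and its 24 genes in the table summed to 247 to 282 FPKM in nic50 livers and 332 to 455 FPKM in control livers, without overlap.

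Of 15 tested markers of hepatic stellate cells and fibroblasts, 6 rose and 0 fell, where 3.69% of all tested genes rose, with a median of 1.02. They were COL1A1, COL3A1 and DCN, given above, the transcription factor HAND2, the secreted guidance protein reelin, RELN, and the lectin COLEC11. HAND2 had 15.2 to 23.1 FPKM in nic50 livers and 4.20 to 7.94 FPKM in control livers, a rise of 1.47 (SE 0.32, adjusted p = 0.0276). RELN rose by 1.22 (SE 0.23, adjusted p = 0.0181). None of the 6 passed against control liver 1 alone, where HAND2 differed by 1.95 (adjusted p = 0.0608). In that fit the median of the list was 1.13 and that of all genes 0.36. The 19 markers found in the table summed to 193 to 222 FPKM in nic50 livers, against 161 to 184 FPKM in control livers. In nic10 livers the sum was higher still, at 235 to 247 FPKM, while the median difference of the tested markers between nic10 and control was 0.40. None of 20 tested endothelial markers passed, with a median of 0.30. The 23 such markers in the table summed to 60.8 to 93.2 FPKM in nic50 livers. They summed to 38.8, 204 and 263 FPKM in control livers 1, 2 and 3, and to 141, 141 and 280 FPKM in nic10 livers. Without control liver 1, 2 of the 20 fell and 0 rose. In bulk tissue, more or fewer cells of a type cannot be told apart from more or less RNA in each cell.

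**Figure D5:**
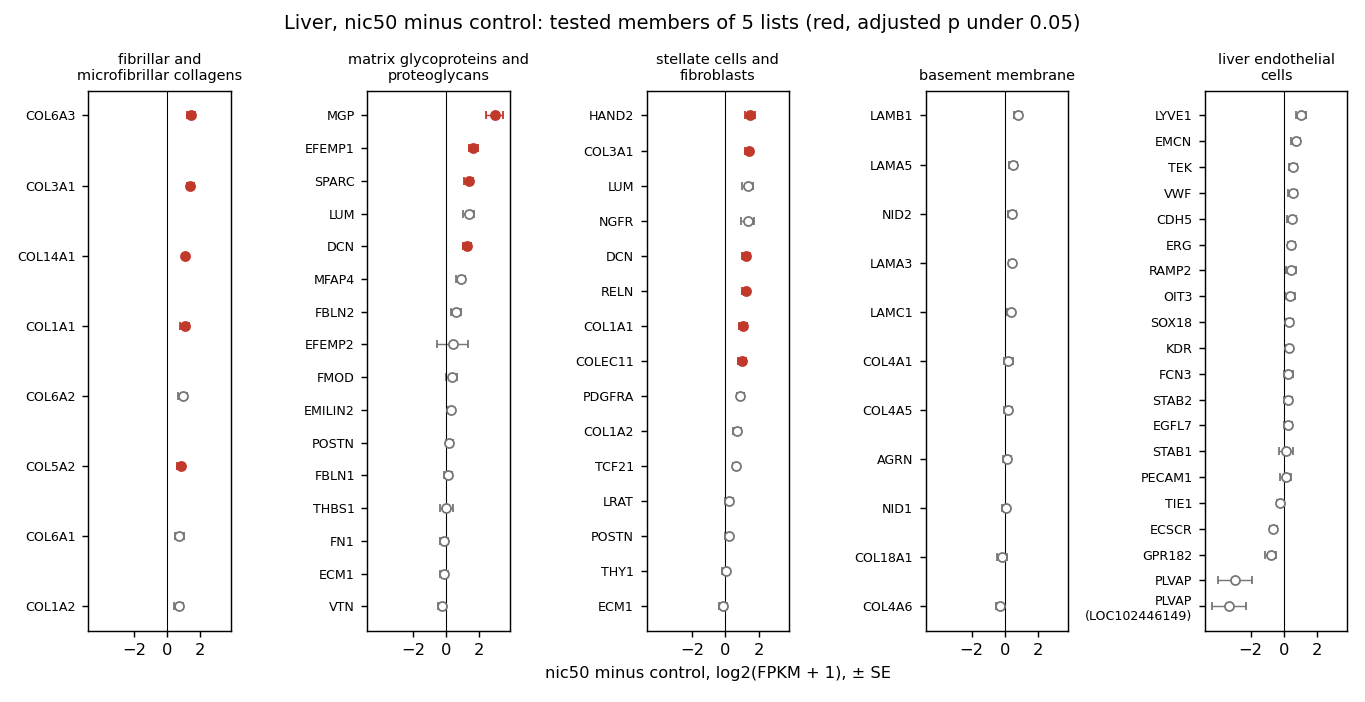
Difference between nic50 and control livers in log2(FPKM + 1), with its SE, for every tested member of 5 lists. Filled red points passed an adjusted p of 0.05. Collagens, matrix glycoproteins and stellate cell markers hold 5, 4 and 6 such points, and basement membrane and endothelial lists hold none. The collagen COL14A1 met the level for testing only through the nic50 livers.

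Some genes of TGF-beta, BMP and Wnt signalling rose. KLF10, a transcription factor induced by TGF-beta, had 9.91, 9.45 and 10.4 FPKM in nic50 livers, against 0.611, 2.48 and 2.58 FPKM in control livers. It rose by 2.01 (SE 0.29, adjusted p = 0.0041), and by 2.76 against control liver 1 alone (adjusted p = 0.00484). BMP6, the ligand that sets hepcidin levels, rose by 0.98 (SE 0.19, adjusted p = 0.0181), BMP4 by 1.08 (SE 0.26, adjusted p = 0.045) and the matricellular protein CYR61 by 1.06 (adjusted p = 0.044). These 4 were called among 28 tested genes of TGF-beta and BMP signalling, where 3.69% of all tested genes rose, with a list median of 0.40, and KLF10 and BMP6 were the 2 that passed with trimmed means. TMEM119, a membrane protein that acts in bone formation in mice and lies on chromosome 15, had 6.11, 10.6 and 9.67 FPKM in nic50 livers and 1.38, 1.16 and 1.57 FPKM in control livers (rise 2.02, SE 0.23, adjusted p = 0.00116), and differed by 2.01 against control liver 1 alone (adjusted p = 0.0362). Of 24 tested Wnt genes, WNT4 rose by 1.71 (SE 0.29, adjusted p = 0.0114), DKK3 by 1.27 and WNT2B by 1.13, where 3.69% of all tested genes rose. The Wnt list had a median of 0.09, and 2 of its genes passed with trimmed means. The nic50 livers lay above all controls for 8 Wnt genes and below them for 5, against 26.8% and 8.75% of all tested genes.

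A pair of endothelin genes rose in nic50 liver. EDN1, the peptide precursor, had 3.83, 4.08 and 4.50 FPKM in nic50 livers, against 0.647, 1.20 and 1.29 FPKM in control livers (rise 1.34, SE 0.31, adjusted p = 0.0378), and was named after its values were seen. EDNRA, its receptor, had 6.73, 14.0 and 14.8 FPKM in nic50 livers and 1.46, 3.95 and 4.89 FPKM in control livers (rise 1.56, SE 0.36, adjusted p = 0.0379). Each had its lowest control value in control liver 1. RARRES1, a retinoid-responsive membrane protein, had 43.0, 78.7 and 76.9 FPKM in nic50 livers and 16.2, 15.9 and 16.4 FPKM in control livers, and rose by 1.92 (SE 0.26, adjusted p = 0.00325), which was also its difference from control liver 1 alone (adjusted p = 0.0591).

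The galectins LGALS3 and LGALS4 and the granulysin gene GNLY fell in nic50 liver. LGALS3, a galectin abundant in macrophages, had 19.7, 15.7 and 19.2 FPKM in nic50 livers, against 66.9, 108 and 83.1 FPKM in control livers. It fell by 2.16 (SE 0.22, adjusted p = 0.000747), and by 1.83 against control liver 1 alone (adjusted p = 0.0296). LGALS4, a galectin of gut epithelium, had 3.79, 7.93 and 5.21 FPKM in nic50 livers and 71.9, 22.8 and 27.6 FPKM in control livers, and fell by 2.52 (SE 0.43, adjusted p = 0.0114). It was the only call among 8 tested intestinal markers; the 24 such markers in the table summed to 37.0 to 43.1 FPKM in nic50 livers and 53.2 to 107 FPKM in control livers. LGALS4 made up this gap: without it they summed to 33.2 to 37.6 FPKM in nic50 livers and 30.4 to 35.2 FPKM in control livers, which overlap, and the 8 tested had a median of 0.16. GNLY (LOC102447230), which encodes a granulysin of cytotoxic lymphocytes, had 1.31, 1.62 and 2.56 FPKM in nic50 livers and 67.3, 139 and 97.7 FPKM in control livers. It fell by 5.14 (SE 0.96, adjusted p = 0.0164), with an adjusted p of 0.118 against control liver 1 alone, while nic10 livers had 32.4, 0.450 and 0.449 FPKM, so the spread within nic10 was as wide as that between groups.

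Macrophage markers differed in both directions. Of 11 tested markers of macrophages and Kupffer cells, HPGDS and LGALS3 fell and LY86, a partner of a Toll-like receptor relative, rose by 1.99 (SE 0.42, adjusted p = 0.0255). Of all tested genes 1.02% fell and 3.69% rose. CD68 had 88.7, 95.3 and 78.1 FPKM in nic50 livers and 120, 91.0 and 87.9 FPKM in control livers, with overlap (adjusted p = 0.742), and was named after its values were seen. The 15 markers in the table summed to 320 to 393 FPKM in nic50 livers, against 344 to 406 FPKM in control livers. The cytotoxic and T cell markers summed to 21.1 to 42.1 FPKM in nic50 livers and 73.8 to 155 FPKM in control livers, and GNLY, 1 of 5 tested members, was the only call. Without GNLY they summed to 19.8 to 39.5 FPKM in nic50 livers and 6.49 to 16.0 FPKM in control livers, the opposite order. The other 4 tested members had positive differences that did not pass, and the median of the 5 was 0.73. No tested marker of B cells, granulocytes, cholangiocytes, or erythrocytes and thrombocytes passed. The part of other cell types in these differences was not tested.

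A few genes of complement and plasma proteins passed. C9, the pore-forming component of complement, had 1195, 1148 and 1121 FPKM in nic50 livers and 648, 502 and 499 FPKM in control livers, and rose by 1.08 (SE 0.23, adjusted p = 0.0276), with 0.83 against control liver 1 alone (adjusted p = 0.179). The complement protease CFI rose by 0.83 (SE 0.20, adjusted p = 0.0396), and clusterin CLU, a complement inhibitor, fell by 0.76 (SE 0.18, adjusted p = 0.0405). With COLEC11 this made 3 higher and 1 lower among 18 tested complement genes, against 3.69% and 1.02% of all tested genes, and the median was -0.25. With trimmed-mean scaling C9 and CFI did not pass (adjusted p = 0.124 and 0.16). Of 22 tested hepatocyte plasma protein genes only FGL1, a secreted hepatokine, rose, by 1.73 (SE 0.33, adjusted p = 0.0186). The protease HGFAC, which activates hepatocyte growth factor, had 56.5, 57.7 and 56.3 FPKM in nic50 livers, against 168, 123 and 136 FPKM in control livers, and fell by 1.30 (SE 0.17, adjusted p = 0.00275), or by 1.55 against control liver 1 alone (adjusted p = 0.0279). Hepsin, HPN, a membrane protease of hepatocytes that can also activate this factor, fell by 1.11 (SE 0.17, adjusted p = 0.00521).

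Some genes of chromosome handling differed although cell division genes as a list did not. CENPV, a centromere protein, had 13.8, 14.3 and 9.52 FPKM in nic50 livers, against 45.9, 51.1 and 52.0 FPKM in control livers. It fell by 1.92 (SE 0.19, adjusted p = 0.000747), and by 1.81 against control liver 1 alone (adjusted p = 0.0328). WDHD1, a replication fork protein, had 0.700, 0.380 and 0.458 FPKM in nic50 livers and 5.55, 4.19 and 4.05 FPKM in control livers, and fell by 1.88 (SE 0.20, adjusted p = 0.000873). MIS18A, which helps to mark centromeres, had 9.54, 9.26 and 8.59 FPKM in nic50 livers and 2.70, 2.58 and 2.15 FPKM in control livers, and rose by 1.55 (SE 0.21, adjusted p = 0.00284). HSF2BP, a protein of meiotic recombination, had 2.28, 2.26 and 1.76 FPKM in nic50 livers, against 0.111, 0 and 0 FPKM in control livers (adjusted p = 0.00105). HSF2BP met the level for testing only through the nic50 livers, so its call is a description. SPDL1, a spindle checkpoint protein, rose by 1.17 (SE 0.17, adjusted p = 0.0049). None of 24 tested genes of a list for DNA replication and mitosis passed, and its median was 0.11.

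Enzymes of amino acid and nucleotide breakdown were called singly. IDO2, a tryptophan dioxygenase, had 3.99, 5.57 and 4.02 FPKM in nic50 livers and 16.2, 11.8 and 12.3 FPKM in control livers, and fell by 1.39 (SE 0.20, adjusted p = 0.00382). NT5C, a nucleotidase, had 5.48, 5.41 and 5.49 FPKM in nic50 livers, against 16.7, 25.1 and 24.3 FPKM in control livers, and fell by 1.81 (SE 0.21, adjusted p = 0.00123). THNSL2, a relative of threonine synthase, had 17.4, 20.1 and 18.5 FPKM in nic50 livers and 4.47, 5.21 and 6.71 FPKM in control livers, and rose by 1.62 (SE 0.18, adjusted p = 0.00105). None of 63 tested genes of the urea cycle and amino acid breakdown passed, where 4.71% of all tested genes did. Without control liver 1, 7 of the 63 rose, against 457 of all 10892 tested genes. The list median was 0.23 in that fit and -0.17 against control liver 1 alone. DPP7, a lysosomal peptidase, fell by 1.36 (SE 0.21, adjusted p = 0.00596), and OPTN, an autophagy receptor, rose by 1.18, the 2 calls among 71 tested genes of lysosome and autophagy. With trimmed-mean scaling 1 of the 71 rose and 2 fell.

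The remaining lists gave 0 to 3 calls each, where 4.71% of all tested genes passed. In the clock list NFIL3 and ARNTL2 rose among 19 tested, and among 27 immediate early genes KLF10, CYR61 and BTG2 rose. With trimmed-mean scaling 1 of these 27 rose and 1 fell. The receptor TNFRSF1A was the only call of 32 genes of NF-kB and inflammation, and IFNGR1 the only call of 24 interferon genes. None of 73 ribosomal protein genes passed; 34 of them had all nic50 livers above all controls, where 26.8% of all tested genes did, and their median was 0.20 as deposited and 0.02 with trimmed-mean scaling. Across the lists, 15 of 50 medians changed sign with that scaling, so a small list median is not a direction.

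The nic50 livers were also set against the nic10 livers, another exposed group. Of the 10892 genes, 276 passed (2.53%), with 195 higher in nic50 (1.79%) and 81 lower (0.744%). Both comparisons hold the same nic50 livers. The count was 68 to 82 without 1 of the nic50 livers, 1426, 173 and 146 without nic10 liver 1, 2 or 3, and 699 and 168 without control liver 1 or 2. DIO2 had 12.4, 11.7 and 19.7 FPKM in nic50 livers against 2.94, 2.21 and 1.66 FPKM in nic10 livers, a difference of 2.24 (SE 0.25, adjusted p = 0.00143). PLOD2 had at most 1.13 FPKM in nic10 livers and differed by 2.44 (adjusted p = 0.00123). It met the level for testing through the nic50 livers, so this call too is a description. HSD3B1 had 0.674, 1.88 and 0.643 FPKM in nic10 livers, below every control liver, and differed by 3.21 between nic50 and nic10 (SE 0.25, adjusted p = 0.000172). PDYN had 0, 0.0279 and 0 FPKM in nic10 livers and differed by 1.82 (adjusted p = 0.000628).

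Several genes that fell against control were also lower than in nic10 livers. LGALS3 had 122, 89.4 and 124 FPKM in nic10 livers, and nic50 was lower by a log2 difference of -2.55 (SE 0.22, adjusted p = 0.000257). HPGDS had 15.8, 9.88 and 4.52 FPKM in nic10 livers (difference -2.76, SE 0.38, adjusted p = 0.00392) and RET 4.42, 1.89 and 5.70 FPKM (difference -2.06, SE 0.29, adjusted p = 0.00435). CISH stood between, with 0.851 to 2.08 FPKM in control livers, 4.96 to 6.88 FPKM in nic10 livers and 13 to 13.7 FPKM in nic50 livers, and nic50 exceeded nic10 by 1.10 (SE 0.23, adjusted p = 0.0326). For RARRES1 the nic10 livers had 49.3, 81.3 and 77.1 FPKM, and the difference between nic50 and nic10 was -0.08 (SE 0.26, adjusted p = 0.9). The nic10 livers of TMEM119 likewise had 5.13 to 8.10 FPKM (difference 0.37, adjusted p = 0.414).

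The liver change at nic50 was compared with the gut change at nic50 in a fit of all 18 libraries. The difference of the changes, liver minus gut, passed for 133 of 13475 genes (0.987%), of which 113 were positive (0.839%) and 20 negative (0.148%). This fit holds the same nic50 and control livers as the main comparison. Of the 133 genes, 103 were also called in liver, so for them the test partly repeats the liver call. DIO2, given above for liver, had 0, 0 and 0.0827 FPKM in nic50 guts and 0.0514, 0.140 and 0.101 FPKM in control guts, and the liver change exceeded the gut change by 2.63 (SE 0.29, adjusted p = 0.000416). CISH had 0.502 to 0.641 FPKM in nic50 guts and 0.587 to 0.835 FPKM in control guts, and its liver change was higher by 2.63 as well (SE 0.39, adjusted p = 0.00402). PTGS2 had 2.11, 2.16 and 1.47 FPKM in nic50 guts, against 6.12, 4.36 and 6.15 FPKM in control guts, the opposite order to liver, and the difference of the changes was 2.48 (SE 0.33, adjusted p = 0.00161).

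Among the genes that fell in liver, LGALS3 had 151, 152 and 136 FPKM in nic50 guts and 149, 131 and 132 FPKM in control guts, with a difference of the changes of -2.26 (SE 0.37, adjusted p = 0.0078). RET had 0.917 to 1.14 FPKM in nic50 guts and 0.867 to 1.50 FPKM in control guts (difference -2.26, SE 0.36, adjusted p = 0.00653). HPGDS had a gut log2 change of -0.71 that did not pass (adjusted p = 0.632), and its difference was -2.55 (SE 0.46, adjusted p = 0.0131). The set of 12 features described above had a median of at least 1 FPKM in control livers 2 and 3 and in 3 gut libraries. These gut libraries were nic50 gut 3 and control guts 1 and 2, with medians of 10.7, 7.42 and 7.71 FPKM. The count of genes past the threshold was 75 and 49 without nic50 liver 2 or 3, 80 without control liver 3, and 72 and 83 without control gut 1 or 2.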

How the data were processed

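RNA was sequenced from liver and gut of Pelodiscus sinensis in 18 libraries, 3 for each tissue and dose, and the 9 livers carry the results. The authors deposited FPKM values for 24880 features per the file headers, and the 6 columns of the comparison were used as they stand. The submitters' processing notes name CASAVA and nothing else, so how reads were aligned and counted, and on which build, is not given in the sources used here. TRIzol extraction was followed by a VAHTS library kit, per the labels' protocols.

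No read counts were used and sequencing depth is unknown: among values below 0.5 FPKM, a single ratio between 2 libraries covered at most 0.213% to 0.672% of features, too few to mark 1 read. Symbols came from the table for 13431 features, and 975 more were named through the RefSeq annotation of ASM4963464v1, used only for names and chromosomes; such a symbol is printed with its identifier. Near-identical copies are uncertain.

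Values were taken as log2(FPKM + 1) in limma 3.58.1 under R 4.3.3, and the spread was moderated with a trend on the mean. Genes at 1 FPKM or more in at least 3 of 9 livers were tested, in 1 fit of the 3 dose groups of liver. Tests were two-sided and adjusted by the Benjamini-Hochberg method, with a threshold of 0.05. A single gene compared by exact permutation of 3 against 3 libraries could not go below p = 0.1. The difference between tissues was an interaction in a fit of 13475 genes over 18 libraries. Fits without 1 library kept the same tested genes. The fit was tested on simulated data.

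The comparison, members, gene lists and tests were chosen with earlier results of these data known. Genes with a symbol were named if they had the 25 highest or 25 lowest changes without overlap, passed every fit without 1 nic50 or control liver, passed as a list member, had the 3 smallest p of a list, belonged to 9 antioxidant genes (NQO1, HMOX1, KEAP1, NFE2L2, GSR, GPX1, CAT, SOD2, SOD1), or led the comparison with nic10 or gut. Any other name is marked as chosen after seeing its values. Alternatives tried were another pseudocount, other filters, trimmed means, quantile normalization, library weights, no trend, a replicate block, fewer groups, averaged alike livers, a fold limit and leaving out libraries; 3 more, on control livers 2 and 3 and chromosome 15, were added after seeing the data. Whether livers with the same replicate number are paired could not be decided from 3 libraries per group. Deviations of nic50 and control livers with the same number correlated at 0.09, -0.19 and 0.21, and those with different numbers at -0.23 to 0.18.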

Additional observations from a re-analysis of the deposited data

Results flagged for a closer look

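For 18 genes described or listed here the change at nic50 differed between liver and gut by the interaction test in limma (adjusted p under 0.05), and each value below subtracts the gut change from the liver change on the log2(FPKM + 1) scale. The lower liver changes were -3.01 for LGALS4, -2.55 for HPGDS, -2.26 for RET, -2.26 for LGALS3, -2.14 for HGFAC, -2.00 for PRR35, -1.34 for the helicase RTEL1 and -1.32 for IDO2. The higher ones were 2.34 for FGL1, 2.35 for TMEM119, 2.48 for PTGS2, 2.53 for EFEMP1, 2.63 for DIO2, 2.63 for CISH, 2.77 for EDNRA, 2.84 for the proteoglycan SRGN, 3.05 for RARRES1 and 3.28 for MGP.

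LGALS4 had 2.49, 7.14 and 7.69 FPKM in nic50 guts and 4.12, 3.43 and 2.92 FPKM in control guts, where control livers had 22.8 to 71.9 FPKM. EDNRA had 2.95 to 5.64 FPKM in nic50 guts, against 9.10 to 13.9 FPKM in control guts, so its order was opposite in the tissues. RARRES1 had 3.12 to 4.14 FPKM in nic50 guts and 6.0 to 14.8 FPKM in control guts, also opposite to liver. IDO2, PRR35 and DIO2 were below 0.3 FPKM in all of these gut libraries, so a gut change of theirs could hardly be seen.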

How the results depend on the processing

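The count of 513 genes was 298 with a mean of at least 5 FPKM, 3373 with library weights, 1134 with only the 2 groups in the fit, 4 with alike livers averaged, 201 without control livers 2 and 3, 104 without them and with trimmed means, and 313 with a log2 change of at least 1. It ranged from 107 to 962 when 1 library was left out. Against nic10 the count of 276 was 137 with a mean of at least 5 FPKM, 4797 with library weights and 4 with averaged livers, and ranged from 68 to 1426 without 1 library. The interaction count of 133 was 272 without control livers 2 and 3 and ranged from 49 to 159 without 1 library. With a replicate block the 3 counts were 499, 218 and 115. Deviations of nic50 and control livers of the same number correlated at 0.09, -0.19 and 0.21, and those of different numbers at -0.23 to 0.18. With 3 libraries per group these values cannot decide whether livers of the same number are paired. The cause of the moves in the counts was not tested, apart from the fewer genes or samples that some settings use.

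Of 119 genes checked, trimmed means ended 29 calls and the fit without control livers 2 and 3 ended 67. The library weights were 0.156 for control liver 1, against 1.81 and 1.46 for control livers 2 and 3. They were 0.193, 4.18 and 0.340 for nic10 livers 1, 2 and 3, so control liver 1 counted for little in that fit. With these weights a call was given to 11 genes that had not passed. Among them were SOD2, GPX1, CAT and KEAP1 (limma adjusted p = 0.00229, 0.0146, 0.0181 and 0.00244), while SOD1, NFE2L2 and NQO1 did not pass. With only the 2 groups in the fit SOD2 passed (limma adjusted p = 0.0449). These settings gave 3373 and 1134 calls over all genes. Signs turned only for genes that had not passed. Without control livers 2 and 3 and with trimmed means the differences were -0.19 for CAT, -0.041 for GPX1, -0.26 for KEAP1, -0.13 for NFE2L2, -0.13 for SOD2 and -0.82 for ATP6. Without those livers alone ATP6 was at -0.35. NFE2L2 was at -0.13 with trimmed means, -0.095 with quantile normalization and -0.089 with library weights, NQO1 at 0.11 with library weights, ATP6 at -0.17 with trimmed means and -0.085 with averaged livers, and CYTB at 0.14 with quantile normalization. Without 1 library NFE2L2 ranged from -0.10 to 0.14, NQO1 from -0.25 to 0.11, SOD1 from -0.11 to 0.0087 and ATP6 from -0.12 to 0.18.

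Depth is unknown, changes of low genes are understated, and control liver 1 differed from control livers 2 and 3.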
